A study of Mus musculus with 8 samples.

Results

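The genes described here are those of the cytosolic ribosome, the particle that makes protein in the cytoplasm. They were found by their symbols, Rpl or Rps followed by a number, among probe sets that the platform's annotation ties to 1 gene alone, and the brightest probe set stood for each gene. The rule used no difference between genotypes and gave 48 genes of the 18193 measured. These 48 genes have 103 probe sets of the 45037 tested. The set held 20 proteins of the small subunit, 22 of the large subunit including 2 of its stalk, and 6 genes named as paralogs of a ribosomal protein. Of the 48, 47 are protein coding and Rps4l is annotated as a transcribed pseudogene. A further 29 genes whose symbols fit the rule, Rplp1, Rpl5, Rpl10, Rpl26 and Rpl36a among them, lie only on probe sets that name several genes and are not counted here.

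A ribosome holds 1 copy of most of its proteins, and the small subunit reads the mRNA while the large subunit joins the amino acids. Ribosomal protein mRNAs are among the most abundant of growing cells. Many of them begin with a C and a run of pyrimidines, the 5′ TOP tract, through which the kinase mTOR and the protein LARP1 set their translation, so that their output can change with no change in mRNA. Ribosomal proteins that are not built into ribosomes, such as RPL5 and RPL11, can bind MDM2 and stabilise p53.

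RNA came from mouse embryonic fibroblasts, connective tissue cells grown out of embryos, of 4 Cebpg-/- and 4 WT samples, each on 1 Affymetrix array. Cebpg encodes C/EBPγ, a basic leucine zipper transcription factor that pairs with other such factors, among them ATF4. Both groups were C57BL/6 cells taken from E13.5 embryos, grown with 10% fetal bovine serum, plated at passage 3 at equal density and collected 48 hours later, and no other allele or agent is given. The labels call the samples biological replicates but do not tell whether each came from its own embryo. The p-values therefore cover the spread among these 8 samples alone, which may be technical in part. Genes that mark the sex of the cells, given below, differed within each genotype, so its samples were not all the same cells.

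Expression is given as RMA values in log2 units, and a change is the Cebpg-/- mean minus the WT mean. Array medians lay between 2.705 and 2.719 in Cebpg-/- samples and between 2.716 and 2.757 in WT samples, and arrays correlated at 0.986 to 0.997 over genes. The number of arrays limits the precision. Of the 3 probe sets of Cebpg, 1 fell, with 5.53 ± 0.12 in Cebpg-/- samples and 6.32 ± 0.07 in WT samples (SD, n = 4 each; limma adjusted p = 0.000593 over probe sets), while the others changed by -0.17 (adjusted p = 0.275) and 0.26 (adjusted p = 0.0942). The sources used here do not say which of the 3 probe sets the deletion covers. The mean of 12 fibroblast markers was 9.20 to 9.50 in Cebpg-/- samples and 9.33 to 9.69 in WT samples. Of the 12, 4 fell (Col1a1, Col1a2, Col3a1 and Pdgfrb) and 0 rose, where 3.99% and 8.62% of all genes did. Their changes ran from -1.05 to 1.07, with 9 negative and 3 positive. Of the positive ones, 1 had an unadjusted limma p under 0.05. The mean of 20 leukocyte markers was 7.62, 4.90, 6.91 and 6.50 in Cebpg-/- replicates 1 to 4, against 3.57, 5.41, 5.31 and 5.53 in WT replicates 1 to 4. All 20 markers had the higher mean in Cebpg-/- samples, and 1 of them, Cd14, passed the test (change 1.37, limma adjusted p = 0.0316), while the groups overlapped for all 20. That count was 20 without Cebpg-/- replicate 2, 7 with array weights and 7 at a threshold of 0.1, and 0 or 1 with any other array left out. Means of erythroid and endothelial markers lay between 1.82 and 2.53 on every array, and those of epithelial markers between 3.17 and 3.65; of these 15 markers 1 passed, Epcam, which fell by 0.34 (limma adjusted p = 0.0200).

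The promoter stretches of 4 genes are shown because they carry the contrasts that follow: Rpl22l1, which passed the test, its parent gene Rpl22, the stalk gene Rplp2, and Rps25, which had the most positive change. Each is 120 bases from RefSeq (GRCm38.p6), 5′ to 3′ on the gene's strand, with 100 bases before the annotated start and 20 from it. Capitals mark a pyrimidine tract whose first base lies within 20 bases of the start (a C followed by at least 4 C or T), TATAAA on either strand, or CCGGAAG on either strand, the core that ETS factors such as GABP bind.
Rpl22l1 (chr3:28805408-28805527, plus strand): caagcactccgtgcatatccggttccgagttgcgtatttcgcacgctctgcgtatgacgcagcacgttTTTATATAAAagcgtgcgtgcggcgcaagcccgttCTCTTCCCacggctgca
Rpl22 (chr4:152325626-152325745, plus strand): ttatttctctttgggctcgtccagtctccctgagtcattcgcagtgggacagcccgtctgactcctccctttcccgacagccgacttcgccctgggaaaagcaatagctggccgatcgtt
Rplp2 (chr7:141447551-141447670, plus strand): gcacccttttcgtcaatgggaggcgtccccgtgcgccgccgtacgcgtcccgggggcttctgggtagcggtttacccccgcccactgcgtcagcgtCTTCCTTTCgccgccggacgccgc
Rps25 (chr9:44407614-44407733, plus strand): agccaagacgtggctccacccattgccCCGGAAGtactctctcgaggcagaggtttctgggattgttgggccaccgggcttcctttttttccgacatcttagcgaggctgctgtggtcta

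Rpl22l1 and Rplp2 hold such a tract next to the start, Rps25 holds CCGGAAG, and the Rpl22l1 stretch also holds TATAAA on both strands in 1 overlapping run. Rps25 has a long pyrimidine run shortly before the start as well, cttcctttttttcc. Its first C lies just beyond the distance set above, so the run was neither marked nor counted, although later Cs of the run lie within that distance. Rps25 is therefore not shown to lack a tract. The Rpl22 stretch holds none of the 3 motifs, although a second annotated start of Rpl22 has a tract. RefSeq promoter windows of 250 bases before to 50 bases after the start were given for 42 of the 48 genes, in 50 windows, some of which overlap. The tract was found on the gene's strand in 37 of these 50 windows (74%), against 47.5% of all 32841 windows. The Rps25 window is not among the 37. CCGGAAG on either strand was found in 40% of the ribosomal protein windows and 8.86% of all windows, and TATAAA in 12% and 13.6%. Motifs known for C/EBP and ATF factors were searched in the same way. TGATGNAA, the element that C/EBP and ATF4 dimers bind, was in 0 of the 50 windows (3.97% of all), TTGCNNAA in 6% (10.8% of all) and TGACGTCA in 4% (1.79% of all), each on both strands, and matches of different motifs may overlap. These letters are a description of the windows and no measure of binding.

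The question put to the 48 genes was whether their mRNA differed between Cebpg-/- and WT fibroblasts. Most of them lay close to the WT level: 38 of the 48 (79.2%) changed by less than 0.1 on the log2 scale, which is 1.07-fold, against 47.8% of all genes. No ribosomal protein gene rose and 1 fell, Rpl22l1, the paralog of Rpl22 (limma, Benjamini-Hochberg adjusted p under 0.05 over all 18193 genes). That is 2.08% of the 48, where 12.6% of all genes passed, 8.62% higher and 3.99% lower. At an unadjusted p under 0.05, 3 of the 48 were higher and 3 lower, where 28.4% of all genes passed, 17.5% higher and 10.9% lower. In RNA of whole cultures, fewer cells of a type and less RNA per cell cannot be told apart.

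The median change of the 48 genes was 0.03, beside -0.00 over all genes, and 33 were positive and 15 negative. It was 0.0075 under quantile normalization. With array medians subtracted it was 0.061, but that step adds the same amount to every gene's change and moved the median of all genes to 0.034. Changes ran from -0.49 (Rpl22l1) to 0.24 (Rps25), and the quartiles were -0.01 and 0.05. The 4 values of the Cebpg-/- samples lay above all 4 WT values for 5 genes (Rpl38, Rpl6, Rpl7l1, Rps25 and Rps27l) and below them for 1 (Rpl22l1), and the groups overlapped for the other 42. The 12.5% of ribosomal protein genes whose groups did not overlap stand beside 19.5% of all genes, 12.8% above and 6.74% below.

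**Figure D1:**
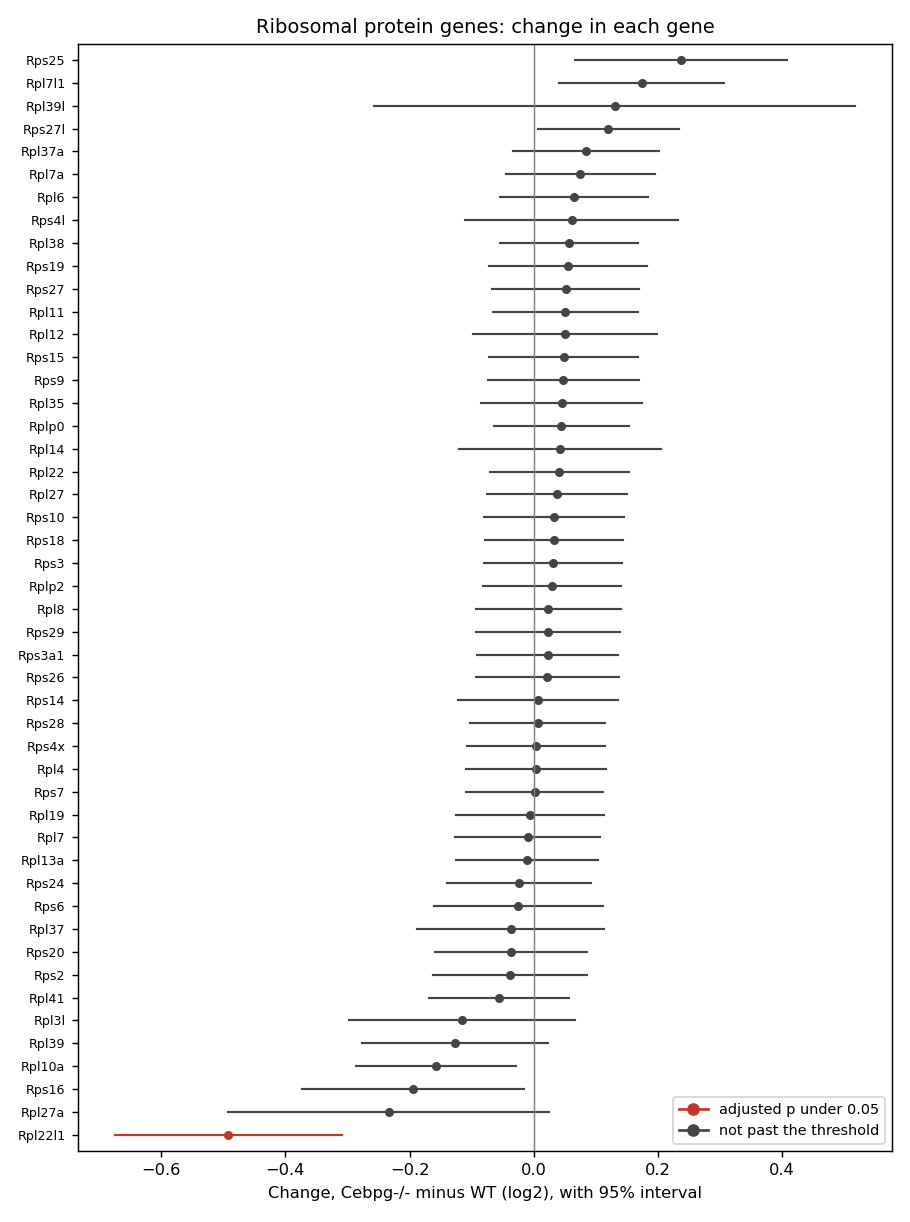
Change of each of the 48 ribosomal protein genes, Cebpg-/- minus WT on the log2 scale, with points at the estimate and bars for the 95% limma interval, sorted from Rps25 (0.24) at the top to Rpl22l1 (-0.49) at the bottom. Rpl22l1, in red, is the gene with an adjusted p under 0.05, and 38 of the 48 points lie within 0.1 of 0.

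The 95% limma interval of the change lay wholly inside ±0.2 on the log2 scale, or 1.15-fold, for 35 of the 48 genes (72.9%). The same held for 19.4% of all genes. With a mean value of at least 10, it held for 88.6% of 35 ribosomal protein genes and 36.4% of 368 other genes. Replicate arrays were also closer together for ribosomal protein genes: the median SD within a genotype was 0.043, beside 0.108 for all genes. With a mean of at least 10 it was 0.037 for the 35 and 0.066 for the 368 others. The median levels of the 35 and the 368 were 12.09 and 10.65, so they are not matched in level. Among those 368 other genes 14.4% passed the test (6.25% higher, 8.15% lower), with changes from -0.97 to 1.65.

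Probe sets of 35 ribosomal protein genes had a mean of at least 10, between 10.77 and 12.58, at or above the 98.98th percentile of all genes. The highest value of any probe set lay between 12.94 and 12.98 on the Cebpg-/- arrays and between 12.92 and 13.05 on the WT arrays, so these probe sets sit near the top of the scale, where a change can be understated. How far the scale was compressed there was not tested. At a mean of at least 12 there were 18 other genes, and 1 of them passed, the collagen gene Col1a2, with 12.25 ± 0.13 in Cebpg-/- samples and 12.69 ± 0.06 in WT samples (SD, n = 4 each; limma adjusted p = 0.00506). Among the 34 bright ribosomal protein genes that did not pass, changes lay between -0.16 and 0.12, and no 95% bound went beyond -0.29 (1.22-fold) or 0.23 (1.18-fold). The other 13 genes had probe sets between 1.34 and 8.51.

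**Figure D2:**
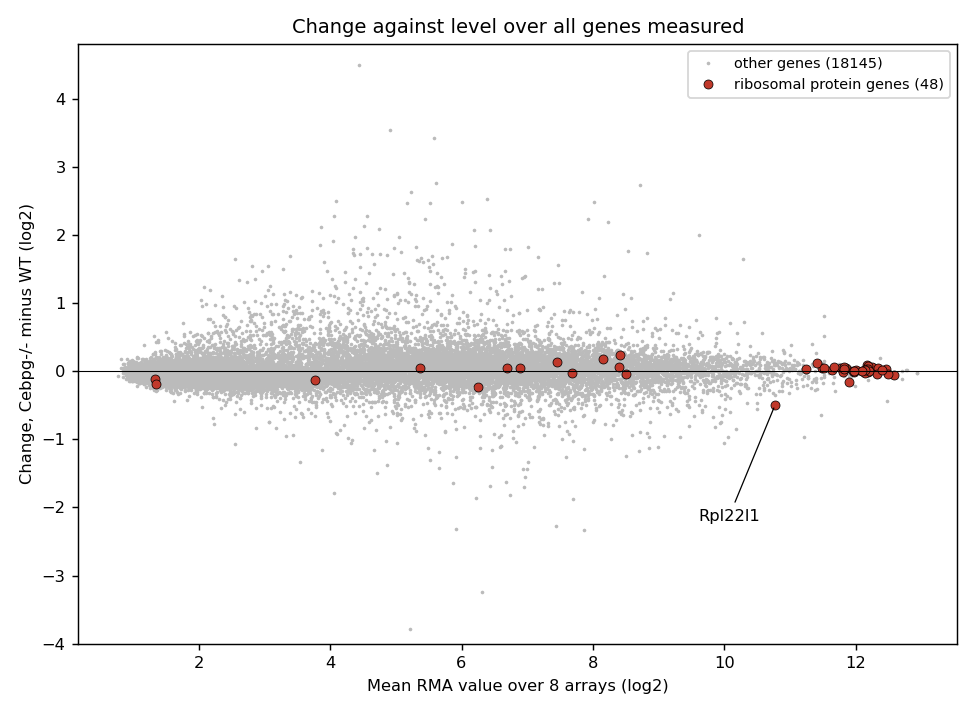
Change, Cebpg-/- minus WT on the log2 scale, against the mean RMA value over the 8 arrays, for 48 ribosomal protein genes (red) and all other genes (grey). At the right, 35 of the 48 ribosomal protein genes lie between 10.77 and 12.58, most of them close to a change of 0 and Rpl22l1 below them at -0.49, and the other 13 lie between 1.34 and 8.51.

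In the small subunit, 0 of 20 genes passed in either direction, where 12.6% of all genes did. The 20 had a median change of 0.02, with 15 positive and 5 negative. At an unadjusted limma p under 0.05, 1 was higher and 1 lower, where 17.5% and 10.9% of all genes were. Rps25, a protein that viral and cellular internal ribosome entry sites use, had 8.48, 8.61, 8.47 and 8.55 in Cebpg-/- replicates 1 to 4, against 8.32, 8.44, 8.31 and 8.10 in WT replicates 1 to 4. Every Cebpg-/- value was above every WT value, and WT replicate 4 was the lowest. Rps25 is measured by 1 probe set alone, whose mean of 8.41 is below those of the 35 bright genes. The change of 0.24 had a 95% interval of 0.07 to 0.41 and did not pass (limma adjusted p = 0.0715). Without WT replicate 2 it did, at 0.29 (limma adjusted p = 0.0425), and over all alternatives that left out 1 array this was the only one in which it passed.

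Rps6, the protein that S6 kinases phosphorylate downstream of mTOR, had 7.60, 7.77, 7.69 and 7.64 in Cebpg-/- replicates, against 7.72, 7.72, 7.75 and 7.61 in WT replicates. The values overlapped and the change was -0.02, with an interval of -0.16 to 0.11 (limma adjusted p = 0.833). The probe sets of Rps6 averaged 7.69 and 2.02, below those of the bright genes. How well they report the Rps6 mRNA was not tested. Rps16 had the most negative change of the small subunit, -0.19 (limma adjusted p = 0.142), but its 1 usable probe set averaged 1.25 ± 0.16 in Cebpg-/- samples and 1.44 ± 0.06 in WT samples (SD, n = 4 each), near the bottom of the scale. Rps27 lay at 5.39 ± 0.05 in Cebpg-/- samples and 5.34 ± 0.04 in WT samples (SD, n = 4 each; change 0.05, limma adjusted p = 0.560). Its 1 probe set was likewise below those of the bright genes. Rps2, whose probe set is among the 3 brightest, changed by -0.04 (limma adjusted p = 0.699).

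Rps4x is X-linked, and the arrays differed in genes that mark the sex of the cells. Xist, the RNA that coats an inactive X chromosome, read 8.63, 8.65, 3.05 and 2.77 in Cebpg-/- replicates 1 to 4 and 7.81, 8.91, 3.07 and 2.96 in WT replicates 1 to 4. The Y-linked Eif2s3y read 1.65, 1.82, 6.90 and 6.97 in Cebpg-/- replicates and 6.26, 1.64, 6.52 and 7.02 in WT replicates, so WT replicate 1 was high in both. Rps4x had 12.07, 12.12, 12.10 and 12.08 in Cebpg-/- replicates, against 12.10, 12.12, 12.09 and 12.05 in WT replicates. Its values overlapped, with arrays of high and of low Xist mixed along the range, and the change was 0.00 (limma adjusted p = 0.971). The other X-linked gene, Rpl39 of the large subunit's exit tunnel, had a dim probe set with 3.76, 3.66, 3.72 and 3.70 in Cebpg-/- replicates, against 3.81, 3.92, 3.93 and 3.69 in WT replicates. WT replicate 4 lay among the Cebpg-/- values, and the change of -0.13 did not pass (limma adjusted p = 0.245).

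In the large subunit with its stalk, 0 of 22 genes passed, where 12.6% of all genes did. The 22 had a median change of 0.03, with 14 positive and 8 negative. At an unadjusted limma p under 0.05, 17.5% of all genes were higher and 10.9% lower. Of the 22, 0 were higher and 1 was lower. That gene was Rpl10a, a protein near the exit site for tRNA, with 11.770, 11.901, 11.819 and 11.805 in Cebpg-/- replicates, against 12.008, 12.028, 12.001 and 11.889 in WT replicates. Cebpg-/- replicate 2 was just above WT replicate 4, so the groups overlapped. The change was -0.16, with an interval of -0.29 to -0.03 (limma adjusted p = 0.104), and it passed only in the fit with an intensity trend and robust variances (adjusted p = 0.0255).

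Rpl27a had 5.98, 6.06, 6.30 and 6.17 in Cebpg-/- replicates, against 6.30, 6.23, 6.70 and 6.20 in WT replicates, and its change of -0.23 did not pass (limma adjusted p = 0.218). The groups overlapped, and WT replicate 3 stood highest; without it the change was -0.12. The probe sets of Rpl27a averaged 6.24 and 1.54, below those of the bright genes. Rpl38 and Rpl6 had fully separated groups at small differences. Rpl38, a protein tied in mice to the translation of Hox mRNAs, had 12.31, 12.26, 12.26 and 12.24 in Cebpg-/- replicates, against 12.20, 12.22, 12.23 and 12.19 in WT replicates (change 0.06, limma adjusted p = 0.495). Rpl6 averaged 11.86 ± 0.03 in Cebpg-/- samples and 11.79 ± 0.05 in WT samples (SD, n = 4 each; change 0.06, limma adjusted p = 0.463).

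Rpl11, the MDM2-binding protein, averaged 11.80 ± 0.03 in Cebpg-/- samples and 11.75 ± 0.05 in WT samples (SD, n = 4 each), a change of 0.05 with an interval of -0.07 to 0.17 (limma adjusted p = 0.563). Rplp0 and Rplp2 form the stalk that recruits elongation factors. Rplp2 had 12.50, 12.49, 12.49 and 12.43 in Cebpg-/- replicates, against 12.42, 12.45, 12.46 and 12.46 in WT replicates (change 0.03, limma adjusted p = 0.736). Rplp0 changed by 0.04 (limma adjusted p = 0.595). The 2 genes thus kept within 0.05 of WT in their estimates, and the interval of Rplp2 ran from -0.08 to 0.14. Rpl41, the shortest protein of the ribosome, averaged 12.56 ± 0.04 in Cebpg-/- samples and 12.61 ± 0.02 in WT samples (SD, n = 4 each; change -0.06, limma adjusted p = 0.512). All 4 probe sets of Rpl41 had negative changes, none past the threshold, and the change was -0.14 with their mean and -0.33 for the dim one that remains without _x_at and _s_at probe sets. Rpl37a had the most positive change of the large subunit, 0.08 (limma adjusted p = 0.330).

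Among the 6 paralogs, 0 rose and 1 fell, where 8.62% and 3.99% of all genes did, and the paralogs' median change was 0.09. At an unadjusted limma p under 0.05, 2 were higher and 1 was lower, where 17.5% and 10.9% of all genes were. The 6 genes are too few for these counts to set paralogs apart. Some, though not all, genes named in this way stand in for or differ from their parent protein in some tissues. Rpl22l1 (Entrez 68028) had 10.37, 10.68, 10.58 and 10.47 in Cebpg-/- replicates 1 to 4, against 11.06, 11.11, 10.86 and 11.04 in WT replicates 1 to 4. The highest Cebpg-/- value, of replicate 2, was below the lowest WT value, of replicate 3. Rpl22l1 averaged 10.53 ± 0.13 in Cebpg-/- samples and 11.02 ± 0.11 in WT samples (SD, n = 4 each), a change of -0.49 (SE 0.08, 95% interval -0.67 to -0.31), which is 1.41-fold lower (limma adjusted p = 0.00525). It is measured by 1 probe set alone.

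Rpl22l1 was also fitted beside the leukocyte markers. With the mean of the 20 markers as a covariate its change was -0.39 and the call was lost (limma adjusted p = 0.0880). It was also lost without Cebpg-/- replicate 1 and WT replicate 1, the arrays highest and lowest in the markers, at -0.43 (limma adjusted p = 0.0548), an alternative chosen after seeing the data. These fits call far fewer genes in all: 244 higher and 115 lower with the covariate, and 347 higher and 182 lower without the 2 arrays. Among Cebpg-/- samples, replicate 1, highest in the markers at 7.62, had the lowest Rpl22l1 value (10.37), and replicate 2, lowest in the markers at 4.90, had the highest (10.68). Replicates 3 and 4 did not keep that order, with 10.58 at a marker mean of 6.91 and 10.47 at 6.50. Nor did WT replicates 1 to 4, with 11.06, 11.11, 10.86 and 11.04 at marker means of 3.57, 5.41, 5.31 and 5.53. The marker mean of Cebpg-/- replicate 2 lay inside the WT range of 3.57 to 5.53 and its Rpl22l1 value below every WT value. The part of leukocyte RNA in the difference was not tested beyond these fits. With any 1 array left out, the change stayed between -0.54 and -0.44 and passed in 8 of 8 fits (limma adjusted p between 0.00360 and 0.0215).

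Rpl22, the parent gene, encodes an RNA-binding protein of the large subunit, and loss of Rpl22 in mice is known to raise Rpl22l1. Rpl22 had 11.85, 11.90, 11.87 and 11.84 in Cebpg-/- replicates, against 11.84, 11.83, 11.85 and 11.78 in WT replicates, a change of 0.04 (limma adjusted p = 0.635). The groups overlapped. Its 2 other probe sets changed by 0.08 and 0.14. The one at a mean of 11.12 had separated groups, with 11.18, 11.15, 11.19 and 11.13 in Cebpg-/- replicates, against 11.08, 11.09, 11.06 and 11.10 in WT replicates (limma adjusted p = 0.361 over probe sets). All 3 estimates for Rpl22 were positive while that of Rpl22l1 was negative, and none of the 3 passed.

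**Figure D3:**
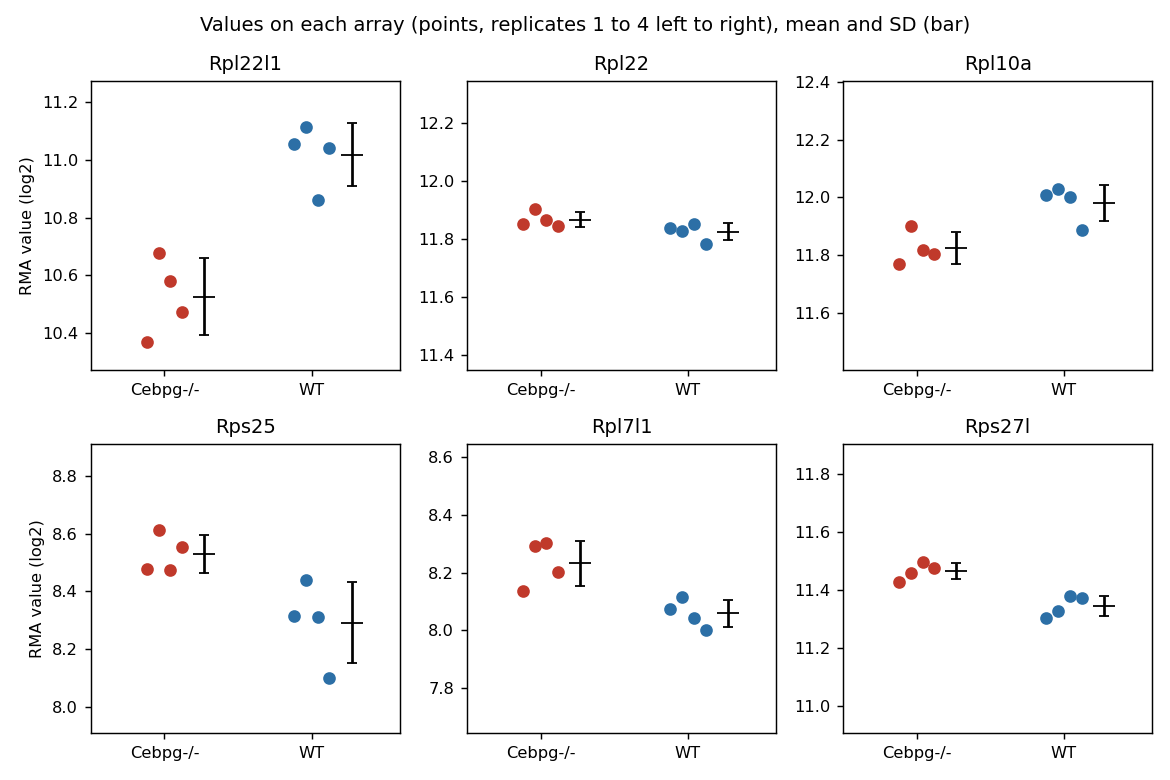
RMA values (log2) on each array for Rpl22l1, Rpl22, Rpl10a, Rps25, Rpl7l1 and Rps27l, Cebpg-/- left of WT, with points for replicates 1 to 4 and a bar for the mean and SD; each panel spans 1 log2 unit. The 4 Cebpg-/- points of Rpl22l1 (10.37 to 10.68) lie below all WT points (10.86 to 11.11), and those of Rps25, Rpl7l1 and Rps27l lie above theirs.

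Rpl7l1, a relative of Rpl7, had 8.136, 8.290, 8.301 and 8.202 in Cebpg-/- replicates, against 8.074, 8.115, 8.043 and 8.001 in WT replicates. The groups did not overlap, though Cebpg-/- replicate 1 lay only just above WT replicate 2. The change was 0.17 (interval 0.04 to 0.31, limma adjusted p = 0.0847), and its other probe sets changed by 0.15 and 0.28, so all 3 lay on the same side. With the mean of the 3 probe sets it passed, at 0.20 (limma adjusted p = 0.0282).

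Rps27l, the paralog of Rps27 known as a p53 target, had 11.43, 11.46, 11.50 and 11.48 in Cebpg-/- replicates, against 11.30, 11.33, 11.38 and 11.37 in WT replicates. The groups did not overlap, and the change of 0.12 did not pass (interval 0.01 to 0.23, limma adjusted p = 0.153). Its other probe sets changed by 0.03 and 0.08. Rpl39l, known for its part in sperm ribosomes, had the widest spread of the 48 genes, with 7.47, 7.70, 7.10 and 7.81 in Cebpg-/- replicates, against 7.45, 7.09, 7.78 and 7.24 in WT replicates. The groups were fully mixed (change 0.13, interval -0.26 to 0.52, limma adjusted p = 0.666). Rpl3l, a muscle paralog of Rpl3, was near the bottom of the scale at 1.28 ± 0.13 in Cebpg-/- samples and 1.39 ± 0.11 in WT samples (SD, n = 4 each; change -0.12, limma adjusted p = 0.384). Rps4l averaged 8.43 ± 0.12 in Cebpg-/- samples and 8.37 ± 0.10 in WT samples (SD, n = 4 each; change 0.06, limma adjusted p = 0.645).

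Of the 48 genes, 25 have 1 probe set and 23 have several. Over the 103 probe sets, 0 rose and 3 fell, where 7.60% of all probe sets passed, 4.82% higher and 2.78% lower (limma, adjusted over probe sets). The median size of a change was 0.033 for the 69 probe sets with a mean of at least 10 and 0.118 for the 34 below it. Beside that of Rpl22l1, the probe sets that fell were dim ones of Rps18 and Rps3, neither of which stood for its gene. That of Rps18 had 4.13, 4.12, 4.14 and 4.08 in Cebpg-/- replicates, against 4.61, 4.38, 4.40 and 4.25 in WT replicates (change -0.29, limma adjusted p = 0.0474), while the probe set used for Rps18, at a mean of 12.19, changed by 0.03. That of Rps3 had 2.24, 2.17, 2.30 and 2.30 in Cebpg-/- replicates, against 2.53, 2.69, 2.61 and 2.50 in WT replicates (change -0.33, limma adjusted p = 0.0145). Rps3 thus had separated groups in opposite directions, since its probe set at 7.16 changed by 0.22 (adjusted p = 0.0868) and the one used, at 11.82, by 0.03. Both dim probe sets go against the bright ones of the same gene.

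**Figure D4:**
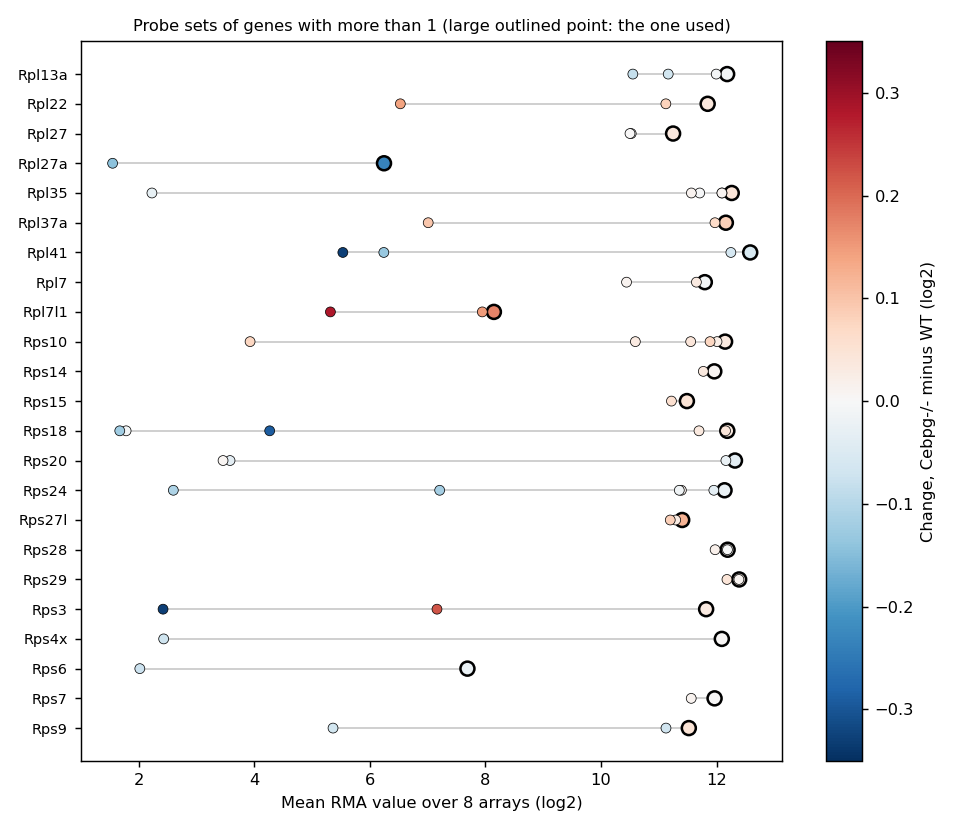
Mean RMA value (log2, x axis) of every probe set of the 23 ribosomal protein genes with more than 1 probe set, 1 gene per row, coloured by the change, Cebpg-/- minus WT, with the probe set used for the gene outlined. Probe sets of 1 gene spread over up to 10.5 log2 units (Rps18), and strong colours sit mainly among the dim ones.

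A further 110 probe sets name a ribosomal protein gene together with other genes, often pseudogenes, and none of them stood for a gene here. Their changes ran from -0.39 to 0.16 with a median of 0.01. Of the 110, 0 rose and 2 fell, where 4.82% and 2.78% of all probe sets did (limma, adjusted over probe sets). Of ribosome genes outside the symbol rule, Rpsa of the small subunit changed by 0.01 (limma adjusted p = 0.939) and Fau, which encodes a small-subunit protein fused to a ubiquitin-like one, by 0.05 (limma adjusted p = 0.574).

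Other mRNAs known for a 5′ TOP tract, those of elongation and initiation factors and of proteins such as Pabpc1, Npm1 and Tpt1, were set beside the ribosomal protein genes. Of 19 measured, 0 passed in either direction and 4 were higher at an unadjusted p under 0.05, where 17.5% of all genes were, with a median change of 0.02. With array medians subtracted 3 of the 19 rose, with the intensity trend and robust variances 3, and with dim probe sets left out 1. Of all genes 2188, 1677 and 1698 (of 11704 kept) rose in these fits. The 4 with the lowest p were the initiation factor genes Eif3l (0.16, adjusted p = 0.0705), Eif4a2 (0.18, adjusted p = 0.0730) and Eif3h (0.15, adjusted p = 0.111) and the elongation factor gene Eef1d (0.13, adjusted p = 0.153; limma). Of 18 genes that control this class of mRNA through mTOR, 1 rose and 1 fell, a share close to the 12.6% of all genes that passed. Ddit4, which encodes the mTOR inhibitor REDD1, rose by 0.33, with 8.96 ± 0.10 in Cebpg-/- samples and 8.63 ± 0.17 in WT samples (SD, n = 4 each; limma adjusted p = 0.0393). Eif4ebp1, the eIF4E-binding repressor that mTOR inactivates, fell by 0.28, with 9.74 ± 0.03 in Cebpg-/- samples and 10.02 ± 0.11 in WT samples (SD, n = 4 each; limma adjusted p = 0.0212). Deptor (0.48, adjusted p = 0.122) and Castor1 (0.22, adjusted p = 0.133), both mTOR inhibitors, did not pass. Both calls were lost with the leukocyte covariate, without both replicate 1 arrays, and without any 1 of Cebpg-/- replicate 1, Cebpg-/- replicate 3 or WT replicate 1. That of Ddit4 was also lost under quantile normalization and without Cebpg-/- replicate 2, Cebpg-/- replicate 4 or WT replicate 3.

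Genes that make rRNA and assemble ribosomes were counted in the same way. Of 36 genes of rRNA synthesis and ribosome assembly, 6 rose (16.7%, where 8.62% of all genes did) and 0 fell. Their median change was 0.12, and 0.10 under quantile normalization. With array medians subtracted it was 0.16, where the same step moved the median of all genes to 0.034. The 6 were Wdr12 (0.38, adjusted p = 0.00622), Nob1 (0.30, adjusted p = 0.00717), Rrp12 (0.28, adjusted p = 0.0167), Nhp2 (0.25, adjusted p = 0.0214), Sbds and Rrp9 (limma). Wdr12 acts in large-subunit rRNA processing, Nob1 makes the last cut of the small-subunit rRNA, and Nhp2 is a core protein of particles that modify rRNA. Without Cebpg-/- replicate 1, Cebpg-/- replicate 3 or WT replicate 1 the count was 3 each, with the leukocyte covariate 0, and without both replicate 1 arrays 0. The median change was 0.14 in each of the last 2 fits. Of all genes 810, 916, 780, 244 and 347 rose in these fits, in that order, against 1569 in the main fit. The count was 11 or 12 with array medians subtracted, the filter on dim probe sets, the intensity trend or array weights. Of all genes 2188, 1698 (of 11704 kept), 1677 and 1920 rose there.

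Proteins of the mitochondrial ribosome are encoded by another gene family, and 23 of its 76 measured members rose (30.3%, where 8.62% of all genes did) while 0 fell. Their median change was 0.17, and 0.13 under quantile normalization. With array medians subtracted it was 0.20, where the same step moved the median of all genes to 0.034. The groups were separated above WT in 45 of 76 (59.2%, where 12.8% of all genes were). Mrpl1 had 5.96, 5.75, 5.93 and 5.79 in Cebpg-/- replicates, against 5.34, 5.43, 5.47 and 5.45 in WT replicates (change 0.44, limma adjusted p = 0.00351). All 4 Cebpg-/- values were above all WT values, and the same held for Mrps22 (0.33, adjusted p = 0.00576), Mrpl49 (0.40, adjusted p = 0.00865) and Mrps10 (0.31, adjusted p = 0.0147). The count of 23 fell to 8 without Cebpg-/- replicate 1, 4 without Cebpg-/- replicate 3, 5 without WT replicate 1 and 10 without WT replicate 3, and was 9 under quantile normalization and 35 with array medians subtracted. It was 0 with the leukocyte covariate and 2 without both replicate 1 arrays. The number of all 18193 genes that rose moved as well. It was 1569 in the main fit and 810, 916, 780 and 1010 in the same fits without 1 array, in that order. Of all genes 1131 rose under quantile normalization, 2188 with array medians subtracted, 244 with the covariate and 347 without both replicate 1 arrays. The median change lay between 0.14 and 0.17 with the covariate, without both replicate 1 arrays and without any 1 array. The part of leukocyte RNA in these counts was not tested beyond these fits. No test of the difference between the cytosolic and mitochondrial families was made, and their counts and medians stand side by side. Their median levels differ, at 11.84 for the cytosolic and 7.59 for the mitochondrial genes. Most cytosolic ones thus lie near the top of the scale, where a change can be understated.

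**Figure D5:**
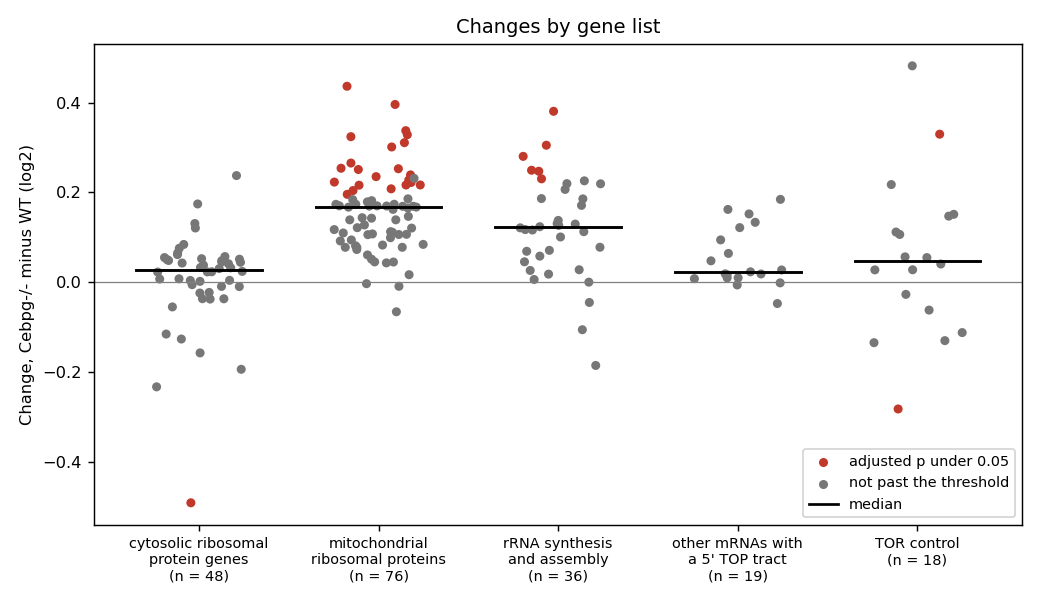
Change of each gene, Cebpg-/- minus WT on the log2 scale, for 48 cytosolic ribosomal protein genes, 76 mitochondrial ones, 36 genes of rRNA synthesis and assembly, 19 other 5′ TOP genes and 18 genes of mTOR control, with a line at each median and red for an adjusted p under 0.05. The medians are 0.03, 0.17, 0.12, 0.02 and 0.05, and 23 mitochondrial genes are red on the higher side against none of the cytosolic ones. Median levels differ between these families (7.59 mitochondrial, 11.84 cytosolic).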

How the data were processed

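The deposited values are log2 expression values that the authors made with RMA from 1 array per sample, per the submitters' processing notes, which name no version or setting. RMA usually normalizes arrays to 1 distribution, which removes a shift common to all genes. Of 45101 probe sets, 64 controls were left out. The platform's annotation ties 34945 probe sets to 1 gene, 932 to several and 9160 to none; 34741 symbols were updated by Entrez number through RefSeq (GRCm38.p6). No per-sample column was left unused. The model, with genotype as its 1 term, was fitted to all 45037 probe sets by lmFit and eBayes of limma (3.58.1, under R 4.3.3) without a trend. For 18193 genes the p of the brightest probe set was taken, and these were adjusted together after Benjamini and Hochberg, 0.05 being the threshold. All p-values from limma are two-sided. The fit was tested on simulated data.

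Members and lists were chosen with earlier results of these data known. The rule names every member that passed, the 5 most positive and the 5 most negative changes, paralogs, stalk genes, Rpl11, Rps6, X-linked genes, the 3 brightest and the 3 dimmest members, and up to 4 genes per other list. Rplp1, Rpl5, Rpl10, Rpl26 and Rpl36a, which the rule also names, have no probe set of their own. Rpl22, Rpl6, Rpl38, Rps27 and the dim probe sets of Rps18 and Rps3, along with Sbds, Rrp9, Cd14, Epcam and the fibroblast markers that passed, were chosen after their values were seen. The alternatives tried were subtracting array medians, quantile normalization, averaging all probe sets of a gene, dropping _x_at and _s_at probe sets, dropping probe sets that did not exceed 2.73 on 4 arrays or more, a variance trend with robust settings, weights per array, a replicate block, the leukocyte marker mean as a covariate, a threshold of 0.1, and leaving out each array. Levels of different probe sets depend on their probes and do not rank genes by mRNA.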

Additional observations from a re-analysis of the deposited data

Results flagged for a closer look

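The value of 12.43 for Rplp2 in Cebpg-/- replicate 4 stood below the other 3 Cebpg-/- values, which lay between 12.49 and 12.50, by more than Dixon's 95% critical value for 4 samples. It was 1 such value in 44 groups of 4 examined over the 22 named ribosomal protein genes, and chance marks about 1 group in 20.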

How the results depend on the processing

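Over all alternatives, the number of ribosomal protein genes that rose was 0 except for 2 with array medians subtracted, 1 with probe sets averaged per gene, 2 with an intensity trend and robust variances and 2 at a threshold of 0.1; leaving out 1 array gave 0 to 1 (Rps25 without WT replicate 2). The number that fell was 1 except for 2 with the intensity trend and robust variances (Rpl10a beside Rpl22l1), 0 with the leukocyte covariate and 0 without both replicate 1 arrays; leaving out 1 array gave 1 each time. The median change, 0.027, was 0.061 with array medians subtracted, which moved the median of all genes to 0.034, and 0.012 to 0.032 with 1 array left out. Rps25 passed with array medians subtracted (0.27, limma adjusted p = 0.0322), with the trend (adjusted p = 0.0407) and at a threshold of 0.1; Rpl7l1 passed with array medians subtracted (0.21, adjusted p = 0.0357), with the mean of probe sets and at 0.1; Rps27l passed with the trend (adjusted p = 0.0403). Among the 22 named ribosomal protein genes, the sign of 2 changes near 0 turned: Rps4x was -0.0032 under quantile normalization, -0.034 with the mean of probe sets, -0.0023 with array weights and between -0.010 (without WT replicate 4) and 0.013 (without WT replicate 2) with 1 array left out, -0.0064 without Cebpg-/- replicate 2, and Rps6 was 0.010 with array medians subtracted, 0.043 with the covariate, between -0.057 (without Cebpg-/- replicate 2) and 0.0013 (without Cebpg-/- replicate 1) with 1 array left out, and 0.0079 without both replicate 1 arrays. The causes were not tested. Of all 18193 genes 1569 were higher and 726 lower; the split was 1131 and 864 under quantile normalization, 2188 and 584 with array medians subtracted, 978 and 491 with the block, 244 and 115 with the covariate, 347 and 182 without both replicate 1 arrays, 2350 and 1266 at a threshold of 0.1, and 780 to 1690 higher and 395 to 969 lower with 1 array left out. The filter kept 46 of the 48 ribosomal protein genes and leaving out _x_at and _s_at probe sets kept 43. Same-numbered arrays correlated at -0.36, 0.15, 0.02 and 0.05 in their deviations. The labels do not tell whether the numbers pair the samples, and these correlations cannot settle it. With the replicate block 0 ribosomal protein genes rose and 1 fell, Rpl22l1 (limma adjusted p = 0.0180), with a median of 0.03. In the same fit 6 mitochondrial ribosomal protein genes and 2 of rRNA synthesis and assembly rose.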
